A study of Rattus norvegicus with 15 samples.

Results

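Nfkb1, Nfkbia, Irf1 and Stat3 are 4 genes of the inflammatory transcription pathways, and their RNA was read here in arteries of the rat mesentery, which feed the intestine. They were chosen by gene symbol, with results of these arrays already known, so their differences between groups are given as a description and without a test. The platform annotation gives these symbols to 7 probe sets, of 8740 that are not array controls, and the 4 genes stand among 4736 named genes. Of the 7 probe sets, 6 passed the filter on low signal, which left 6512 in all, and the second Stat3 probe set did not.

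One strain was the spontaneously hypertensive rat (SHR), whose blood pressure climbs with age, and the other the Wistar Kyoto rat (WKY), its related strain of normal pressure. From both strains there were control arteries and collateral arteries, the latter carrying extra flow because neighbouring mesenteric arteries had been occluded. The 15 Affymetrix arrays comprised 4 of SHR control, 4 of SHR collateral, 3 of WKY control and 4 of WKY collateral arteries, and the series asks what lies behind poorer collateral growth in SHR. No drug or altered gene is named for any group, and the labels give neither the age of the rats nor the time after occlusion, nor whether each array is a separate animal, so any error given here is the spread between these samples.

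NF-kB is a family of transcription factors that inhibitors hold in the cytoplasm until a cytokine or danger signal has the inhibitor destroyed. Nfkb1 encodes a precursor that is processed to a DNA-binding NF-kB subunit, and Nfkbia encodes the inhibitor IkB-alpha, whose own gene is a classic NF-kB target, so that its RNA also serves as a readout of the pathway. Irf1 is an interferon regulatory factor that interferon gamma and NF-kB induce, and Stat3 carries the signal of the interleukin-6 family of cytokines. In the vessel wall these factors are known for switching on adhesion molecules and chemokines in endothelial and smooth muscle cells.

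The promoter windows of Nfkb1, Nfkbia and Irf1 are shown because each holds a match to the NF-kB consensus, the binding sequence shared by the family. On their brightest probe sets these are also the 3 genes whose strains did not overlap in control arteries below. Whether the matches bear on the strain differences was not tested. The sequences are RefSeq windows on assembly GRCr8, from 250 bases before to 50 bases after the start site. They are printed 5′ to 3′ on the gene's own strand with the matches in capitals. The Nfkb1 window is chr2:226805413-226805712 on the minus strand, the Nfkbia window chr6:78597023-78597322 on the minus strand and the Irf1 window chr10:38417685-38417984 on the plus strand. The start site used lay 435 bases inside the annotated outer edge of Nfkb1 and 235 bases inside that of Nfkbia, and at the edge of Irf1.
Nfkb1: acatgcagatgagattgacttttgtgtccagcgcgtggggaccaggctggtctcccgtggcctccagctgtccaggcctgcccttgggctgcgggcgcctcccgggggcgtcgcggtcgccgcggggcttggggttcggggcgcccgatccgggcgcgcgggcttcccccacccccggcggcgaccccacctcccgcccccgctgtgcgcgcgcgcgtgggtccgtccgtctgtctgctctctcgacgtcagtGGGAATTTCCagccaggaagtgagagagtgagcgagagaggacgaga
Nfkbia: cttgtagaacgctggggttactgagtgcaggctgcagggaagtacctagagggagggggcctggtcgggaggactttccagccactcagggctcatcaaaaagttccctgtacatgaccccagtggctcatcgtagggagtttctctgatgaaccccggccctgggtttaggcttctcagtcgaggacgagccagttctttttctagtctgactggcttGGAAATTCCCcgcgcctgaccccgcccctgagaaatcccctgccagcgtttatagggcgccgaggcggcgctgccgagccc
Irf1: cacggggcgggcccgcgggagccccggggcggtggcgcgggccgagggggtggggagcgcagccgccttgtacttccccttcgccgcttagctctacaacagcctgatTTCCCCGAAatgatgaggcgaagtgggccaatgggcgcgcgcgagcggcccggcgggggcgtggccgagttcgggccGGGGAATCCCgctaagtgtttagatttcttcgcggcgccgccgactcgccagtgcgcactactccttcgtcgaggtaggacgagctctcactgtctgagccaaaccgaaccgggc

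The Nfkb1 match, GGGAATTTCC, began at position +4, counted from the start site. The Nfkbia match lay at -31 and reads as the same 10 bases, GGGAATTTCC, on the opposite strand. Irf1 held GGGGAATCCC at -65 and, at -142, TTCCCCGAA, a match to TTCNNNGAA, the form of site that STAT factors bind. Both strands were searched and these matches did not overlap one another. Of 33469 rat promoter windows of this length, 7.51% held the NF-kB consensus and 8.87% held TTCNNNGAA. No match to either was found in the Stat3 window, chr10:86363310-86363609 on the minus strand, which says only that these letters are not there. A match is a description of the sequence and not a measured binding site.

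The deposited values are MAS5 signals, an array brightness per probe set scaled so that the trimmed mean of each array is near 1001. They compare 1 probe set between arrays and not different genes with one another. One array, SHR collateral 3, was unlike the rest: its rank correlations with the remaining 14 arrays were 0.496 to 0.657, its spike-in controls averaged 354583 against 26654 to 130880, and its dim probe sets were raised, with a 20th percentile of 171 against 43.4 to 83.3. Values of the 4 genes are therefore given with and without it where it moves them most. Some pathway values are also given without a single array that moved them. All were chosen after seeing the data, and other pathway values that moved as far are given over all arrays only. The log2 ratio of 3′ to 5′ signal, a sign of RNA quality, was 1.64 to 2.31 in SHR and 2.07 to 2.62 in WKY, so it moved with strain, and its part in the strain differences was not tested. Smooth muscle was plainly present: 7 of 8 markers were on the array and all 7 stood above the 40th percentile of signal on every array.

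Nfkb1, the NF-kB subunit, was the gene whose strains were fully apart. Its signal was 999, 881, 1184 and 934 on the SHR control arrays and 785, 516, 240 and 1218 on the SHR collateral arrays, against 2206, 1699 and 1926 on the WKY control arrays and 1728, 1622, 2015 and 1317 on the WKY collateral arrays. Every one of the 8 SHR arrays, the highest at 1218, lay below every one of the 7 WKY arrays, the lowest at 1317. Among all tested probe sets 0.215% were lower in SHR in this way, a share from the contrasts that chose the gene and therefore not read as support.

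On the log2 scale Nfkb1 averaged 9.96 ± 0.18 (SD, n = 4) in SHR control, 9.20 ± 1.00 (n = 4) in SHR collateral, 10.92 ± 0.19 (n = 3) in WKY control and 10.69 ± 0.25 (n = 4) in WKY collateral arteries. SHR minus WKY was -0.96 ± 0.41 (SE) in control arteries, so WKY signal was 1.95-fold that of SHR, and -1.49 ± 0.38 in collateral arteries. The lowest array was SHR collateral 3, the one unlike the rest, at 240. Without it the group averaged 9.63 ± 0.62 (n = 3) and the strain difference in collateral arteries was -1.06. In order of level the groups ran WKY control, WKY collateral, SHR control and SHR collateral, and of these neighbours only WKY collateral and SHR control did not overlap.

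Collateral and control arteries of one strain overlapped in Nfkb1 signal. Collateral minus control was -0.76 ± 0.38 in SHR and -0.23 ± 0.41 in WKY, and the SHR value was -0.33 without SHR collateral 3. Nfkb1 has a single probe set here, so a sequence difference between the strains under the probes and a difference in RNA level cannot be told apart. In whole arteries, fewer cells of a type and less RNA per cell cannot be told apart either, which holds for all the genes below.

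**Figure D1:**
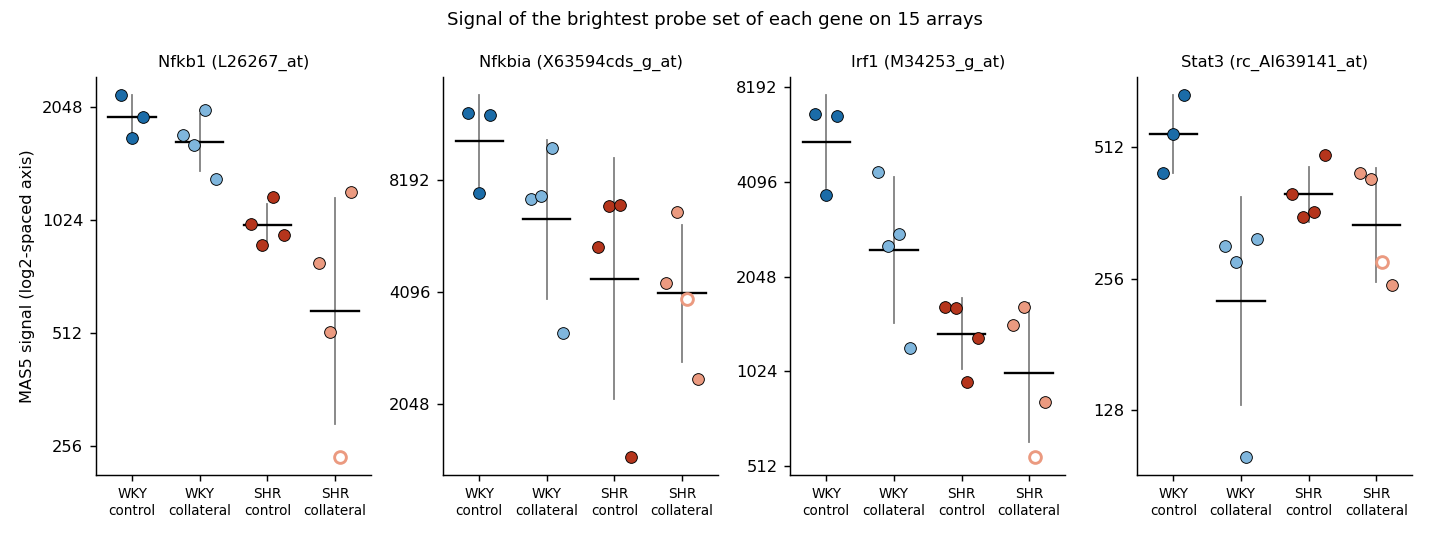
MAS5 signal (log2-spaced vertical axis) of Nfkb1, Nfkbia, Irf1 and Stat3 on 15 arrays, by group; each point is an array, black lines are means of log2 signal and grey lines ± 1 SD, and the open point is SHR collateral 3. All 8 SHR points lie below all 7 WKY points for Nfkb1, WKY control is highest for Irf1 with no overlap against SHR control, and for Stat3 the WKY collateral points, 99.97 to 315, lie below WKY control.

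Nfkbia, the inhibitor, was bright on every array and highest in WKY control arteries. Its brighter probe set read 5411, 6985, 7001 and 1475 on the SHR control arrays and 4331, 6693, 3920 and 2385 on the SHR collateral arrays. It read 12356, 7540 and 12206 on the WKY control arrays and 7265, 7427, 9948 and 3166 on the WKY collateral arrays. The control groups of the strains did not overlap, while the collateral groups did, and SHR control 4 was far below the other SHR control arrays.

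Mean log2 signal of Nfkbia was 12.12 ± 1.08 (SD, n = 4) in SHR control, 11.99 ± 0.61 (n = 4) in SHR collateral, 13.35 ± 0.41 (n = 3) in WKY control and 12.65 ± 0.71 (n = 4) in WKY collateral arteries. The groups ran in level as for Nfkb1, WKY control, WKY collateral, SHR control and SHR collateral, and each group overlapped its neighbour. SHR minus WKY was -1.23 ± 0.49 in control arteries, or -0.70 without SHR control 4, and -0.66 ± 0.46 in collateral arteries. Collateral minus control was -0.13 ± 0.46 in SHR and -0.70 ± 0.49 in WKY. The dimmer Nfkbia probe set had the same signs over all arrays, at -0.99 and -0.73 between strains in control and collateral arteries and -0.22 and -0.48 between vessels in SHR and WKY, and the probe sets correlated at r = 0.87 over the 15 arrays. Single arrays moved the dimmer one: without SHR collateral 3 it stood at -0.33 between strains in collateral arteries and at 0.18 between SHR vessels, with the sign turned, and without SHR control 4 at -0.27 between strains in control arteries.

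Irf1 had the widest strain gap in control arteries of the 4 genes. Its brighter probe set read 1643, 1635, 947 and 1306 on the SHR control arrays and 1434, 1639, 549 and 822 on the SHR collateral arrays. The WKY control arrays read 6751, 3718 and 6634, and the WKY collateral arrays 4417, 2554, 2792 and 1217. WKY control arteries therefore stood above all SHR arrays, while WKY collateral arteries reached down into the SHR range through WKY collateral 4 alone.

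Averaged on the log2 scale, Irf1 stood at 10.40 ± 0.37 (SD, n = 4) in SHR control, 9.99 ± 0.73 (n = 4) in SHR collateral, 12.43 ± 0.49 (n = 3) in WKY control and 11.28 ± 0.77 (n = 4) in WKY collateral arteries. Neighbours in this order, from WKY control through WKY collateral and SHR control to SHR collateral, all overlapped. SHR minus WKY was -2.03 ± 0.43 in control arteries, a WKY signal 4.08-fold that of SHR, and -1.29 ± 0.40 in collateral arteries, or -0.999 without SHR collateral 3. Collateral minus control was -1.14 ± 0.43 in WKY and -0.41 ± 0.40 in SHR. The second value was -0.12 without SHR collateral 3.

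A dimmer Irf1 probe set did not follow the brighter one throughout. It read 84.0 to 479 on the SHR control arrays, 223 to 1013 on the SHR collateral arrays, 230 to 781 on the WKY control arrays and 176 to 544 on the WKY collateral arrays. SHR minus WKY was -0.80 ± 0.65 in control arteries and 0.28 ± 0.60 in collateral arteries, and collateral minus control was 0.89 ± 0.60 in SHR and -0.19 ± 0.65 in WKY. Its highest value, 1013, came from SHR collateral 3, where the brighter probe set had its lowest, and the probe sets correlated at r = 0.21 over 15 arrays and 0.54 over the other 14. Without that array the dimmer set stood at -0.11 between strains in collateral arteries, with the sign turned, and at 0.50 between SHR vessels. Without SHR control 4 it stood at -0.29 between strains in control arteries and 0.37 between SHR vessels.

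Stat3 differed most between the WKY vessels. Its brighter probe set read 401, 355, 365 and 491 on the SHR control arrays and 447, 433, 280 and 247 on the SHR collateral arrays. On the WKY control arrays it read 448, 549 and 674, and on the WKY collateral arrays 304, 279.6, 99.97 and 315. All WKY collateral arrays were below all WKY control arrays, with WKY collateral 3 far below the rest, and the strains overlapped in both vessel types.

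Stat3 log2 signal averaged 8.64 ± 0.21 (SD, n = 4) in SHR control, 8.41 ± 0.44 (n = 4) in SHR collateral, 9.10 ± 0.30 (n = 3) in WKY control and 7.83 ± 0.79 (n = 4) in WKY collateral arteries. The order of level was WKY control, SHR control, SHR collateral and WKY collateral, each overlapping its neighbour. Collateral minus control was -1.27 ± 0.46 in WKY, or -0.88 without WKY collateral 3, and -0.23 ± 0.42 in SHR. SHR minus WKY was -0.46 ± 0.46 in control and 0.58 ± 0.42 in collateral arteries, the latter 0.18 without WKY collateral 3.

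The second Stat3 probe set was too dim to be tested and lay below the 20th percentile of signal on all 4 WKY collateral arrays. It read 20.4, 26.5, 30.5 and 39.2 there against 130, 77.9 and 112 on the WKY control arrays, again with no overlap, a difference of -1.88 ± 0.72. In SHR it ranged from 41.9 to 107 in control and from 29.4 to 219 in collateral arteries. Over the 15 arrays the Stat3 probe sets correlated at r = 0.22, and the second is too dim to be read as a repeat of the first.

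Counted over the 6 tested probe sets, 3 did not overlap between strains in control arteries and were lower in SHR, those of Nfkb1, Nfkbia and Irf1 (background 3.72%). In collateral arteries 1 did so, that of Nfkb1 (background 1.55%). Collateral arteries lay below control arteries without overlap for 0 of 6 in SHR (background 0.814%) and for 1 of 6 in WKY, that of Stat3 (background 3.09%). Without SHR collateral 3, an alternative chosen after seeing the data, these counts were again 3, 1, 0 and 1. The members were picked from these contrasts, so the counts describe them and nothing is read from the background shares.

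The change from control to collateral arteries was more negative in WKY than in SHR for 3 of the 4 genes on their brighter probe sets. SHR change minus WKY change was 0.57 ± 0.67 for Nfkbia, 0.73 ± 0.58 for Irf1 and 1.04 ± 0.62 for Stat3, and -0.53 ± 0.55 for Nfkb1. The Nfkb1 value was -0.10 without SHR collateral 3. With 1 array left out, the lowest values were 0.04 for Nfkbia, without SHR control 4, 0.39 for Irf1, without WKY collateral 4, and 0.64 for Stat3, without WKY collateral 3. Each of the 4 values over all arrays lay within 2 standard errors of 0.

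**Figure D2:**
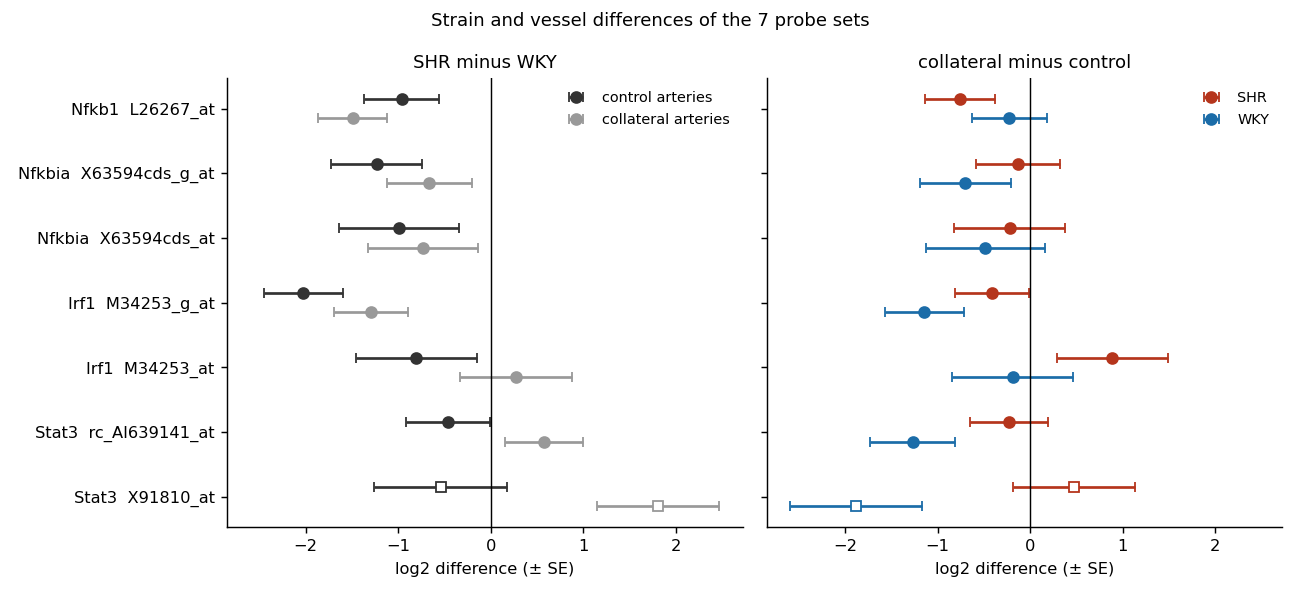
Log2 differences with standard errors for the 7 probe sets of Nfkb1, Nfkbia, Irf1 and Stat3, SHR minus WKY at left and collateral minus control at right; open squares mark the untested Stat3 probe set. Strain differences in control arteries are all below 0, from -0.46 to -2.03, whereas the dimmer Irf1 probe set and both Stat3 probe sets lie above 0 in collateral arteries.

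Some markers of other cells stood apart between the strains too. The summed signal of 6 endothelial markers, of 9 listed, was 1887 to 3001 on SHR control and 3791 to 4466 on WKY control arrays, and 1543 to 4244 against 2191 to 4691 on the collateral arrays. Without Icam2 the sums were 1625 to 2597 on SHR control and 1771 to 2003 on WKY control arrays, which overlap. Of the 6 markers 1 passed, Icam2, an adhesion molecule of resting endothelium: it read 263, 190, 404 and 53.1 on SHR control and 2331, 1788 and 2640 on WKY control arrays, with a log2 difference of -3.62 ± 0.61 (limma, adjusted p = 0.0434), and the median difference over the 6 markers was 0.09. Without the filter on low signal, and with most single arrays left out, 0 probe sets passed in this comparison, so that call was lost. Macrophage markers went the other way, with a sum over 7 of 11 listed of 8697 to 46371 on SHR control and 4612 to 7476 on WKY control arrays, and of 17752 to 31366 against 6209 to 19923 on the collateral arrays. Lyz2 alone ran from 1103 to 34765 over the 15 arrays, and the sum was not repeated without it. The median strain difference of the tested macrophage markers was 1.14 in control and 0.99 in collateral arteries. Of 6 tested, 3 were higher in SHR control arteries at an unadjusted p under 0.05 (background 3.72%) and 0 at an adjusted p. The macrophage markers Lyz2, C1qc, Cd14, Lyve1 and Fcgr2b were above the 40th percentile on all 15 arrays, C1qb on 12 and Csf1r on 2. Of 9 lymphocyte markers on the array at most 6 exceeded the 40th percentile on any array. Cd8b did so on 15 arrays, Lck on 14, Cd79b on 11 and Cd8a on 6. Cd3d, which marks T cells, did so on 2 arrays, Cd3g and Cd4 on 2, Cd2 on 1 and Cd5 on 0. Smooth muscle markers had a median strain difference of -0.32 in control and -0.75 in collateral arteries. There 3 of 7 were lower in SHR at an unadjusted p under 0.05 (background 3.61%). For mast cell markers the medians were 0.96 and 0.92, with 1 and 2 of 4 higher, and for adipocyte markers 0.75 and 1.35, with 0 and 1 of 4 higher. For nerve and glia markers they were 0.43 and 0.87, with 1 of 6 higher in each. Neutrophil and red cell markers had medians of 0.90 and 0.42, with 1 and 0 of 4 higher. Fibroblast markers had medians of 0.35 and 0.22, with 1 and 0 of 8 higher. Medians were -0.22 and 0.49 for lymphocyte markers and 0.32 and 0.54 for gut epithelium markers, with 0 higher in either list. Over all tested probe sets 3.72% were higher in control and 4.01% in collateral arteries at that p. The part of these cell markers in the strain differences of Nfkb1, Nfkbia and Irf1 was not tested.

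The rest of the pathway was read from 203 genes in 11 lists, of which 116 were named on the array and 102 were tested on 163 probe sets. By limma, 0 of the 102 passed an adjusted p of 0.05 in any of the 5 comparisons: SHR against WKY in control arteries, where 0.0307% of all tested probe sets passed, the same in collateral arteries, collateral against control in SHR and in WKY, and the difference of those changes, where 0% passed in each. At an unadjusted p under 0.05, with each gene read by its brightest probe set, SHR was higher for 5 and lower for 4 of the 102 in control arteries, against backgrounds of 3.72% and 2.75%. In collateral arteries SHR was higher for 8 and lower for 7, against 4.01% and 3.61%. Collateral arteries were higher than control for 3 and lower for 2 in SHR (2.07% and 1.69%), and higher for 2 and lower for 3 in WKY (1.75% and 1.41%). For the difference of the changes the counts were 0 higher and 1 lower (1.23% and 0.676%). Counted over the 163 probe sets instead, the collateral strain comparison gave 19 at an unadjusted p under 0.05 and 12 without SHR collateral 3, and the WKY vessel comparison 6 and 10. The median strain difference over the 102 genes was 0.01 in control arteries, as it was over all 3825 named genes tested, and 0.00 against 0.07 in collateral arteries.

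Upstream of NF-kB, Tlr4, the receptor for bacterial lipopolysaccharide, was the member of the ligands and receptors with the smallest p. It read 311 to 376 on SHR control arrays and 152, 180.0 and 25.2 on WKY control arrays, a difference of 1.91 ± 0.58 (limma, unadjusted p = 0.00426, adjusted p = 0.412), and 0.36 ± 0.54 in collateral arteries. WKY control 3 was the lowest of these arrays, and without it the control difference was 0.9998. Lbp, which carries lipopolysaccharide to that receptor, stood at -1.20 ± 0.42 in SHR collateral against control arteries, and Il18, a cytokine of the interleukin-1 family, at 1.16 ± 0.59 between strains in control arteries. Of 13 tested ligands and receptors, 1 was higher (background 3.72%) and 0 lower (2.75%) at an unadjusted p under 0.05 in control arteries. Their median was 0.40. Ngfr, a receptor of the tumour necrosis factor family, stood at 0.87 ± 0.42 between vessels in SHR, and at 0.43 without SHR collateral 3. A second Ngfr probe set stood at 0.14.

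Among 5 tested adaptors and kinases, Csnk2a1, a catalytic subunit of casein kinase, stood at 1.15 ± 0.44 in control and 1.14 ± 0.41 in collateral arteries between strains. Its dimmer probe sets gave -0.04 and 0.39, and 1.89 and 1.51. Map3k8, a kinase that Nfkb1's precursor binds and holds inactive, stood at -1.23 ± 0.67 and -1.36 ± 0.62 in the same comparisons. The collateral values were 0.70 for Csnk2a1 without WKY collateral 2 and -0.60 for Map3k8 without SHR collateral 3. Map3k1 and Tbk1, kinases upstream of the pathway, were at 0.04 and -0.03 in control arteries. None passed adjustment. The 4 other NF-kB subunits and 10 inhibitors listed, Rela and Nfkbib among them, carried no probe set with a single symbol in the annotation used and were not analysed here.

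Among NF-kB's target genes, each read by its brightest probe set, the 3 lower in SHR control arteries at an unadjusted p under 0.05 were all adhesion molecules. This depends on the probe set read. The chemokine Cx3cl1 stood at -1.07 ± 0.57 on its brightest probe set (limma, unadjusted p = 0.0753). Its dimmer ones stood at -3.49 ± 1.13 and -0.93 ± 0.34 (limma, unadjusted p = 0.00645 and 0.0145, adjusted p = 0.452 and 0.613). Vcam1, which lets leukocytes attach to activated endothelium, read 7938, 4131, 1868 and 2170 on SHR control arrays, 6754, 4912, 1124 and 2627 on SHR collateral arrays, 34710, 12960 and 24900 on WKY control arrays and 29650, 14470, 19790 and 3624 on WKY collateral arrays. The control groups did not overlap, and among collateral arrays WKY collateral 4 lay inside the SHR range, as it did for Irf1. SHR minus WKY was -2.72 ± 0.67 in control (limma, unadjusted p = 0.000738, adjusted p = 0.176) and -2.07 ± 0.62 in collateral arteries (adjusted p = 0.384). A second Vcam1 probe set gave -1.78 and -0.88.

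Icam1, another ligand for leukocyte integrins, stood at -1.69 ± 0.45 in control (adjusted p = 0.251 by limma) and -0.96 ± 0.41 in collateral arteries, and its second probe set gave -0.56 and -0.30. Sele, the endothelial selectin, was at -0.91 ± 0.82 and -2.03 ± 0.76, and the platelet and endothelial selectin Selp at -1.45 ± 0.61 and -0.86 ± 0.56. On WKY control 2 Sele read 41.3, against 340.1 and 275 on the other WKY control arrays, so its control value hangs on single arrays. Ptgs2, the inducible cyclooxygenase, stood at -0.85 ± 0.72 and -2.27 ± 0.67, with the other Ptgs2 probe set at -0.28 and 0.38, and without SHR collateral 1 the second of these values was -1.48. In all, 3 of 25 tested targets were lower in SHR control arteries by that measure (background 2.75%) and 0 higher (3.72%). In collateral arteries 4, these being Vcam1, Icam1, Sele and Ptgs2, were lower (3.61%) and 0 higher (4.01%). The list was chosen with earlier results of these data known, so nothing is read from these shares. Over the whole list the medians of the 25 were -0.18 and -0.19, and 15 and 14 of them were below 0.

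Ccl2, the monocyte chemokine, was higher in collateral arteries at 0.94 ± 0.43 in SHR and 0.95 ± 0.46 in WKY (limma, unadjusted p = 0.042 and 0.0543), with adjusted p of 0.949 and 1. Between strains Ccl2 stood at -0.63 ± 0.46 and -0.64 ± 0.43, and Il6 at -1.12 ± 0.75 and -0.99 ± 0.69, none of these past an unadjusted p of 0.05. Il6 ran from 468 to 6645 on the SHR control arrays, so its control value also hangs on single arrays. A second Il6 probe set gave -1.86 and -0.98. Without SHR control 4 the Ccl2 difference between SHR vessels was 0.52.

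**Figure D3:**
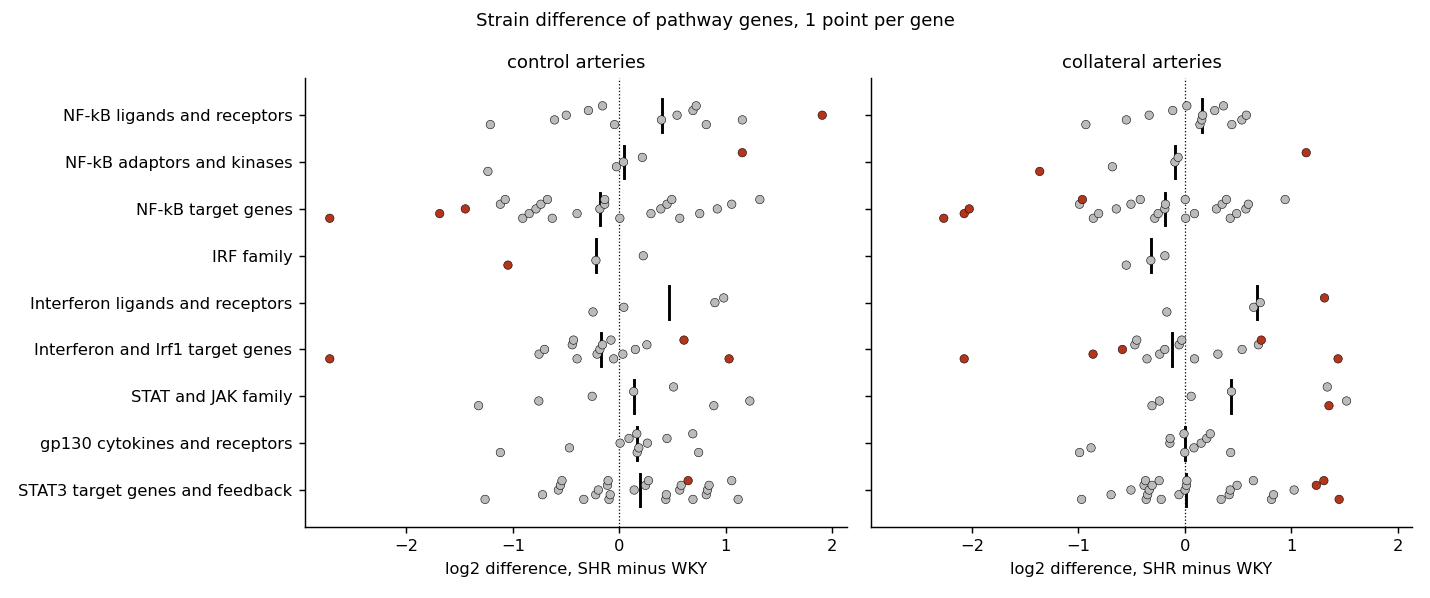
Log2 difference SHR minus WKY for the tested genes of 9 pathway lists, in control arteries at left and collateral arteries at right; each point is a gene read by its brightest probe set, red marks an unadjusted p under 0.05, and black bars are list medians. No gene passed adjustment. The points farthest to the left are Vcam1 in control arteries, at -2.72, and Ptgs2, Vcam1 and Sele in collateral arteries, and the medians lie near 0 for most lists.

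Of the other interferon regulatory factors 3 were tested. Irf8, a factor of myeloid cells, read 140 to 573 on SHR control and 544 to 721 on WKY control arrays, at -1.05 ± 0.44 (limma, unadjusted p = 0.0294, adjusted p = 0.692), and stood at -0.32 ± 0.41 in collateral arteries. The control value was -0.67 without SHR control 3. Irf3, which responds to viral nucleic acid, was at -1.12 ± 0.43 in SHR collateral against control arteries with no overlap, 482 to 1224 against 1377 to 1804. Irf7, the inducer of type I interferons, was at -0.22 ± 0.58 between strains in control arteries. Irf2 was on the array but too dim to be tested.

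The target genes of Irf1 and the interferons lay on both sides of 0, with medians of -0.17 in control and -0.12 in collateral arteries. Of 16 tested, 2 were higher (background 3.72%) and 1 lower (2.75%) in SHR control arteries at an unadjusted p under 0.05. In collateral arteries 2 were higher (4.01%) and 3 lower (3.61%). Psmb8, an interferon-induced proteasome subunit that Irf1 is known to act on, had the opposite sign to Irf1: it read 1811, 899, 972 and 1110 on SHR control and 718, 678 and 368 on WKY control arrays. The difference was 1.03 ± 0.43 in control and 1.44 ± 0.40 in collateral arteries (limma, adjusted p = 0.683 and 0.306). Ifitm3, an interferon-induced membrane protein, lay higher on all 8 SHR arrays, 12900 to 19670, than on all 7 WKY arrays, 8276 to 12110, at 0.61 ± 0.24 and 0.72 ± 0.22 (adjusted p = 0.628 and 0.384).

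Mx1, an antiviral protein, stood at -0.08 ± 0.39 in control and -0.86 ± 0.36 in collateral arteries between strains. Tap1 and Psmb9, the peptide transporter and another proteasome subunit that share a promoter under Irf1, were at -0.70 ± 0.39 and -0.21 ± 0.47 in control arteries, neither past an unadjusted p of 0.05. Of the interferon ligands and receptors, 4 of 11 were tested. Il15, a cytokine Irf1 is known to induce, stood at 0.04 ± 0.59 and 1.31 ± 0.55 between strains, the second 0.79 without WKY collateral 3, and Ifng and Ifnb1 at -0.25 ± 0.75 and 0.98 ± 0.88 in control arteries, and Il12b at 0.90 ± 0.90. Without WKY control 1 the Ifnb1 value was -0.19 and that of Il12b 0.27. A second Il12b probe set gave -1.03 in control arteries, with the sign turned. For Il15, the dimmer probe sets gave -0.94 and -0.15, and 1.16 and 1.00, between strains in control and collateral arteries.

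For Stat3's own family, 7 of 10 STAT and JAK genes were tested and 1, Stat6, was past an unadjusted p of 0.05. It stood at 1.35 ± 0.55 between strains in collateral arteries (limma, adjusted p = 0.579, background 4.01%). Jak1 stood at 1.34 ± 0.75, Stat4 at 1.52 ± 1.07 and Stat5a at -0.31 ± 0.72 in the same comparison. Jak1 was at 0.68 without SHR collateral 2, and Stat4 at 0.55 without SHR collateral 3. A second Stat5a probe set was at 1.07 there, with the sign turned. Of 11 tested genes in the list of cytokines and receptors upstream of Stat3, which holds the interleukin-6 family with its shared receptor Il6st, leptin and interleukin-10, 0 were past an unadjusted p of 0.05 in any comparison. Il6st itself was at 0.69 ± 0.46 between strains in control arteries, Lepr at 0.66 ± 0.44 between vessels in SHR, and Lif at 1.31 ± 0.66 between vessels in WKY.

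Of the STAT3 targets between WKY vessels, 26 were tested, with a median of 0.04. At an unadjusted p under 0.05, 1 was higher (background 1.75%) and 1 lower (1.41%). The higher one was Timp1, an inhibitor of matrix proteases, which read 10170, 8855 and 8374 on WKY control and 17930, 14720, 13000 and 22340 on WKY collateral arrays, at 0.87 ± 0.26 (limma, unadjusted p = 0.00368, adjusted p = 1). In SHR Timp1 was at -0.02 ± 0.24, and the difference between the strains' changes was -0.89 ± 0.36 (unadjusted p = 0.0224, adjusted p = 1). The lower one was Cebpb, a factor of the acute phase response, at -0.84 ± 0.32 without overlap. Vegfa stood at 1.23 ± 0.43 between strains in collateral arteries, and Socs3, the feedback inhibitor of the pathway, at 0.23 ± 0.80 between WKY vessels. Junb and Myc were at -0.46 ± 0.37 and 0.18 ± 0.45 there.

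The genes most like each of the 4 were taken as the highest Pearson correlations of log2 signal over the 15 arrays, among 3824 other named genes. All points share the arrays and their scaling, so these values are descriptions with no p. Irf1 was most like Vcam1, at r = 0.95 (Spearman 0.96), then Pde4b, a phosphodiesterase, at 0.86, Icam1 at 0.85 and Ccn1, a matrix protein, at 0.82, where the 99th percentile over all genes was 0.69. After each group's mean was taken out, Irf1 and Vcam1 still stood at r = 0.94, and at 0.93 over the 14 arrays without SHR collateral 3. In both cases Vcam1 ranked first of the 3824 genes.

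**Figure D4:**
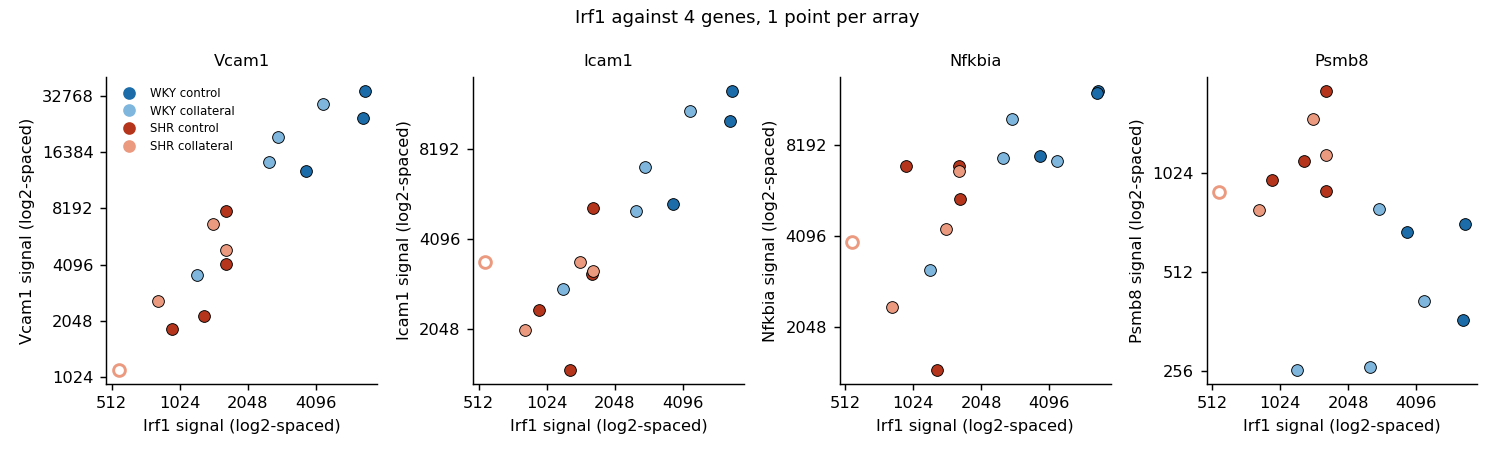
Signal of Vcam1, Icam1, Nfkbia and Psmb8 against Irf1, each on log2-spaced axes, with 1 point per array coloured by group and SHR collateral 3 as the open point. Vcam1 follows Irf1 over the whole range and within groups (r = 0.95), Icam1 less closely (r = 0.85), Nfkbia with wider scatter in SHR (r = 0.72), and Psmb8 is higher in SHR at lower Irf1 (r = -0.38, but 0.40 with group means taken out).

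Nfkbia was most like RT1-S3, a class I histocompatibility gene, at r = 0.85, Bhlhe40, a transcriptional repressor, at 0.84, Icam1 at 0.82 and Icam2 at 0.78, with a 99th percentile of 0.58. With group means taken out these were 0.78, 0.78, 0.71 and 0.85, and Icam2 ranked first. RT1-S3, Bhlhe40, Icam1 and Icam2 each had their lowest value on SHR control 4, as Nfkbia did. Correlations without that array were not computed, and the Spearman correlations were 0.74 to 0.86. Nfkb1 was most like Ube2b, a ubiquitin-conjugating enzyme, at 0.92, Psmd11, a proteasome subunit, at 0.92, Pam, an enzyme that amidates peptides, at 0.91 and Stk38, a kinase, at 0.88. Without SHR collateral 3 these 4 correlations were lower, at 0.82, 0.81, 0.79 and 0.79. The genes most like Stat3 were Anxa3, Sv2a, Rtf1 and Med4, at 0.78 to 0.83, but their Spearman correlations were only 0.33 to 0.64. Each of them had its lowest value on WKY collateral 3, as Stat3 did, and correlations without that array were not computed.

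Among themselves, Irf1 correlated at r = 0.75 with Nfkb1 and 0.72 with Nfkbia, and Nfkb1 at 0.45 with Nfkbia. With group means taken out and without SHR collateral 3, Irf1 and Nfkbia stood at 0.54, Irf1 and Nfkb1 at -0.10 and Nfkb1 and Nfkbia at -0.03. Over the 15 arrays Stat3 correlated with Irf1 at 0.24, with Nfkb1 at -0.06 and with Nfkbia at -0.0034, while with group means taken out and without SHR collateral 3 it stood at 0.06, -0.61 and -0.27 with them. The windows of genes named with Irf1 were searched in the same way: Vcam1's held 1 match to the NF-kB consensus, at -93, those of Icam1 and Psmb8 held 1 match each to TTCNNNGAA, and that of Ptgs2 held neither.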

How the data were processed

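Total RNA from mesenteric arteries was labelled as biotin cRNA from small amounts and read on Affymetrix rat arrays, per the labels' protocols. The authors made the deposited signal with GCOS and MAS5, per the submitters' processing notes. The sources used here give no version of either tool. Scaling every array to one mean lifts dim probe sets where little labelled RNA was present.

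Before log2, the 12 signals under 1 were raised to that floor, and 59 array controls were removed. Testing required 3 or more arrays on which a probe set reached that array's 40th percentile. Of 8740 probe sets, 7006 had 1 gene symbol, 308 several and 1426 none, and the last 2 kinds were left unnamed. Symbols matched a RefSeq gene table for 6985 probe sets and 0 changed.

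Differences and their errors came from 1 model of 4 group means over all 15 arrays, fitted by limma (version 3.58.1, R 4.3.3) with a variance trend and Benjamini-Hochberg adjustment over 6512 probe sets (11 residual and 7.19 prior degrees of freedom). All comparisons with one group in common share its arrays. The members and all lists were chosen with earlier results of these data known. A gene was read by its brightest probe set. The text names the members, up to 4 genes with the smallest p in each list, the 4 genes most like each member and a fixed few. Selp and Cx3cl1 were named after their values were seen. For arrays the number limits the precision: the median standard error between strains in control arteries was 0.54. On simulated data, a log2 change of 1 was recovered for 14% of 50 changed probe sets in control arteries between strains, 2 for 48% and 3 for 82%. The simulated noise was normal and independent, without an array unlike the rest, and changes of all sizes were put in together. These shares may therefore overstate recovery on the real arrays.

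Motifs were searched in RefSeq promoter windows on both strands. Alternatives were array weights, a fit without variance trend, quantile normalization, equal array medians, 68.5 added to each signal, the 60th percentile as filter or none, fits on the compared arrays alone, the replicate number as a block, averaging the probe sets of a gene, and each array left out.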

Additional observations from a re-analysis of the deposited data

Results flagged for a closer look

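In 2 of 21 groups of 4 arrays, 1 array of a member probe set lay far from the others for its group's range, where chance gives about 1 in 20 such groups. The brighter Nfkbia probe set read 1475 on SHR control 4, with the gap to the next array 0.84 of the group's range, and the dimmer Nfkbia and Irf1 probe sets also had their lowest SHR control value there, at 187 and 84.0. The brighter Stat3 probe set read 99.97 on WKY collateral 3, with a gap of 0.90 of the range, while the dimmer Stat3 probe set read 30.5 on that array, inside its group.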

How the results depend on the processing

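Over the alternatives, 635 of 640 recomputed values moved by less than the spread between replicates or kept their count, and 5 moved further. Many of these values could not move. A difference of group means is unchanged by another filter, by dropping the variance trend, or by leaving out arrays of other groups. The 635 is therefore not read as a measure of robustness. With array weights, 2 pathway probe sets passed in the collateral strain comparison instead of 0, Psmb8 at 1.86 (limma, adjusted p = 0.0233) and Ptgs2 at -3.50 (adjusted p = 0.0233). The highest weight, 2.78, went to SHR collateral 1, where Ptgs2 read 69.8 against 447 to 1117 on the other SHR collateral arrays. The Ptgs2 call therefore leans on that array, and without weights its other probe set stood at 0.38. Averaged over a gene's probe sets, the collateral strain difference was -0.51 for Irf1 and 1.20 for Stat3, the SHR vessel difference of Irf1 was 0.24, and the Stat3 difference of changes was 1.70. For these the dimmer probe sets disagree in size or sign. With one array left out, the SHR vessel difference ran from -0.66 to 0.12 for Nfkbia, and the control strain difference from -2.31 to -1.86 for Irf1 and from -1.05 to -0.87 for Nfkb1. Equal array medians moved the median of all probe sets from 0.12 to -0.12 in the collateral strain comparison and from 0.06 to -0.12 between SHR vessels, and no brighter member probe set changed sign. The SHR vessel difference of Stat3 was 0.03 with array weights and 0.12 averaged over its probe sets. Same-numbered deviations correlated between -0.07 and 0.31, so the numbers were not taken to pair the arrays; the labels do not say whether they mark the same rat. With the replicate number as a block, 0 pathway probe sets passed in any comparison. The control strain difference of Irf1 was -1.87 with the block as a fixed term and -1.99 as a random one. Same-numbered arrays of both strains shared a block, so this was not a pairing by rat. Over all probe sets, 2 passed between strains in control and 0 in collateral arteries, against 4 and 6 with the replicate block, 14 and 26 with array weights, 7 and 2 on the compared arrays alone, 0 to 6 and 0 to 7 with one array left out, and 0 in control arteries without the filter or with the stricter one and 1 without the variance trend. The difference of changes could not be computed from only the arrays of 2 groups. The number of arrays limits what could be called.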
